A study of Homo sapiens with 18 samples.

Results

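Trefoil factor 1 (TFF1) and trefoil factor 3 (TFF3) are neighbouring genes that oestrogen induces in breast epithelium, and these 2 genes of the 60656 rows in the deposited table were followed across 6 groups of cells. They were picked out by symbol, as a pair of oestrogen-induced neighbours, with earlier results of these data known. CAMA-1 and ZR-75-1 are established human breast cancer lines that carry the oestrogen receptor, and the labels describe both as wild-type parental cells. Each line was kept for 5 days with abemaciclib, with palbociclib (both drugs at 500 nM) or with the same volume of the solvent DMSO, in medium with serum. All 18 libraries came from cells without an engineered change, 3 libraries to each combination of line and treatment, and RNA was read at the 3′ ends of transcripts. Each line stands for a single tumour, and no group grown without oestrogen was analysed here.

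Trefoil factors are small secreted peptides folded into a cloverleaf by disulphide bonds, and they are released with mucins onto epithelial surfaces, where they take part in repair of the lining. In the stomach TFF1 accompanies surface mucus and TFF2 gland mucus, while TFF3 comes mainly from goblet cells of the intestine. In breast cancer cells TFF1, long known as pS2, is a classic direct target of the oestrogen receptor, and TFF3 is also oestrogen-responsive. Abemaciclib and palbociclib block the kinases CDK4 and CDK6 and so keep the retinoblastoma protein in its active form, and the study asked how that form of the protein affects oestrogen-responsive transcription.

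The 3 trefoil genes lie side by side on chromosome 21 (GRCh38, GENCODE release 44), all read from the minus strand. TFF3 (ENSG00000160180.15) spans 42311667 to 42315409, TFF2 (ENSG00000160181.9) spans 42346357 to 42350997, and TFF1 (ENSG00000160182.3) spans 42362282 to 42366535. The canonical transcripts of TFF1 and TFF3 have 3 exons each, and that of TFF2 has 4. No other gene annotated in this release overlaps TFF1 or TFF3, so their reads are not shared with an annotated gene on the other strand. The strand setting of the study's counting, which used an earlier release, was not stated. The interval from TFF3 to TFF1 measures 54.9 kb, with gaps of 30.9 kb between TFF3 and TFF2 and of 11.3 kb between TFF2 and TFF1.

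The libraries held 2308442 to 4146549 counts, so that 1 count stood for 0.241 to 0.433 CPM, the unit of counts scaled to a common library size. All 8 luminal epithelial markers, among them EPCAM, the keratins KRT8, KRT18 and KRT19, and the transcription factors GATA3 and FOXA1, were expressed in both lines, with summed levels of 4867 to 6867 CPM in CAMA-1 and 5654 to 7350 CPM in ZR-75-1. Of these 8, 4 rose and 1 fell with each drug in CAMA-1. In ZR-75-1, 5 rose and 1 fell with abemaciclib, and 1 rose and 3 fell with palbociclib. Over all genes 20.3% and 18.4% rose and 20.1% and 18.7% fell in CAMA-1 (abemaciclib first). In ZR-75-1 17.9% and 14.5% rose and 18.3% and 13.4% fell. GATA3 was lowest in CAMA-1 (log2 fold changes -0.15 and -0.31, edgeR adjusted p = 0.0365 and 2.16e-05). KRT18 was lowest in ZR-75-1 (-0.38 and -0.63, edgeR adjusted p = 2.46e-06 and 1.23e-11). The defining basal markers KRT5, KRT14 and TP63 had at most 3 counts in any library, as had all 5 leukocyte and endothelial markers, and the stromal markers COL1A2 and PDGFRB were at 0 throughout. ACTA2, also counted as a basal marker, had 2 to 34 counts, rose in CAMA-1 (log2 fold change 2.12 with abemaciclib, edgeR adjusted p = 7.5e-05, and 1.48 with palbociclib, edgeR adjusted p = 0.00699) and fell in ZR-75-1 with abemaciclib (-2.42, adjusted p = 0.000123). The 4 basal markers summed to 1.19 to 3.32 CPM with DMSO, 7.48 to 11.0 with abemaciclib and 5.79 to 6.35 with palbociclib in CAMA-1, and to 4.74 to 10.9, 0.647 to 1.93 and 2.20 to 4.62 CPM in ZR-75-1. COL3A1, a collagen gene, rose in CAMA-1 from 2 to 6 counts with DMSO to 12 to 24 counts with a drug (edgeR adjusted p = 0.000299 and 0.00059), and was at 0 in ZR-75-1. COL1A1, the other stromal marker tested, fell in CAMA-1 with abemaciclib (log2 fold change -0.58, edgeR adjusted p = 0.047) and was -0.53 with palbociclib (edgeR adjusted p = 0.0675). The 4 stromal markers summed to 15.0 to 33.2 CPM over all libraries. The part of these markers in the trefoil results was not tested. Mitochondrially encoded genes took 14.84% to 16.57% of counts in CAMA-1 with DMSO, 23.37% to 26.1% with abemaciclib and 22.86% to 24.94% with palbociclib. In ZR-75-1 that share ran from 17.31% to 22.64% over all 9 libraries. The proliferation genes MKI67, TOP2A, CCNA2 and RRM2 fell in all 4 comparisons of a drug with DMSO, and E2F1 fell in 3 of them (in ZR-75-1 with palbociclib its log2 fold change was -0.19, adjusted p = 0.304). The size of the fall differed between the drugs. The median log2 fold change of these 5 genes was -3.27 with abemaciclib and -2.40 with palbociclib in CAMA-1. In ZR-75-1 it was -4.64 with abemaciclib and -1.29 with palbociclib. For abemaciclib against palbociclib the median was -0.87 in CAMA-1 and -3.14 in ZR-75-1.

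TFF1 rose in each line with each drug. In CAMA-1 its normalised count, the CPM relative to the scaled total of the library, was 263, 269 and 247 in the 3 DMSO libraries. It was 1191, 1129 and 1071 with abemaciclib. It was 929.8, 895 and 989.6 with palbociclib. The 3 groups did not overlap, and the abemaciclib libraries stood above the palbociclib libraries. The means were 259.6 ± 11.2, 1130.4 ± 60.0 and 938 ± 47.9 CPM (SD, n = 3 each). In edgeR's quasi-likelihood test with Benjamini-Hochberg adjustment over all genes, abemaciclib raised TFF1 4.36-fold (log2 fold change 2.12, SE 0.065, 95% interval 1.99 to 2.26, adjusted p = 1.9e-27). Palbociclib raised it 3.62-fold (log2 fold change 1.85, SE 0.065, 95% interval 1.72 to 1.99, adjusted p = 4.6e-25). These tests called many genes in CAMA-1. With abemaciclib 40.3% of the 11053 genes tested were called changed at an adjusted p under 0.05, 20.3% were called higher and 20.1% lower, and groups did not overlap for 48.1%. With palbociclib the shares were 37.1%, 18.4%, 18.7% and 46.0%. By size of log2 fold change, TFF1 was at rank 112 from the top with abemaciclib and at rank 170 with palbociclib.

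In ZR-75-1, TFF1 started higher and rose again. The DMSO libraries had 1732, 1619.9 and 1713 CPM. The abemaciclib libraries had 8034, 8767 and 8293 CPM. The palbociclib libraries had 7243.5, 7216.5 and 7094 CPM. Again no group overlapped another, with abemaciclib highest. Against a DMSO mean of 1688 ± 59.9 CPM, the mean with abemaciclib was 8365 ± 372 CPM and with palbociclib 7185 ± 79.6 CPM (SD, n = 3 each). The rise with abemaciclib was 4.96-fold (log2 fold change 2.31, SE 0.064, 95% interval 2.18 to 2.44, edgeR adjusted p = 5.27e-35), where 36.2% of the 11017 genes tested were called, 17.9% were called higher, 18.3% lower, and 45.8% had groups that did not overlap. The rise with palbociclib was 4.26-fold (log2 fold change 2.09, SE 0.064, 95% interval 1.96 to 2.22, edgeR adjusted p = 7.91e-33), with shares of 27.9%, 14.5%, 13.4% and 39.0%. TFF1 was at rank 69 and rank 75 from the top of all genes in these comparisons. Ordered by raw count within a library, where reads come from transcript ends and length enters little, it moved from place 56 to 59 with DMSO to place 8 to 10 with abemaciclib, and it was at place 10 in each palbociclib library. In CAMA-1 it moved from place 506 to 563 to place 70 to 82 with abemaciclib and 96 to 107 with palbociclib.

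**Figure D1:**
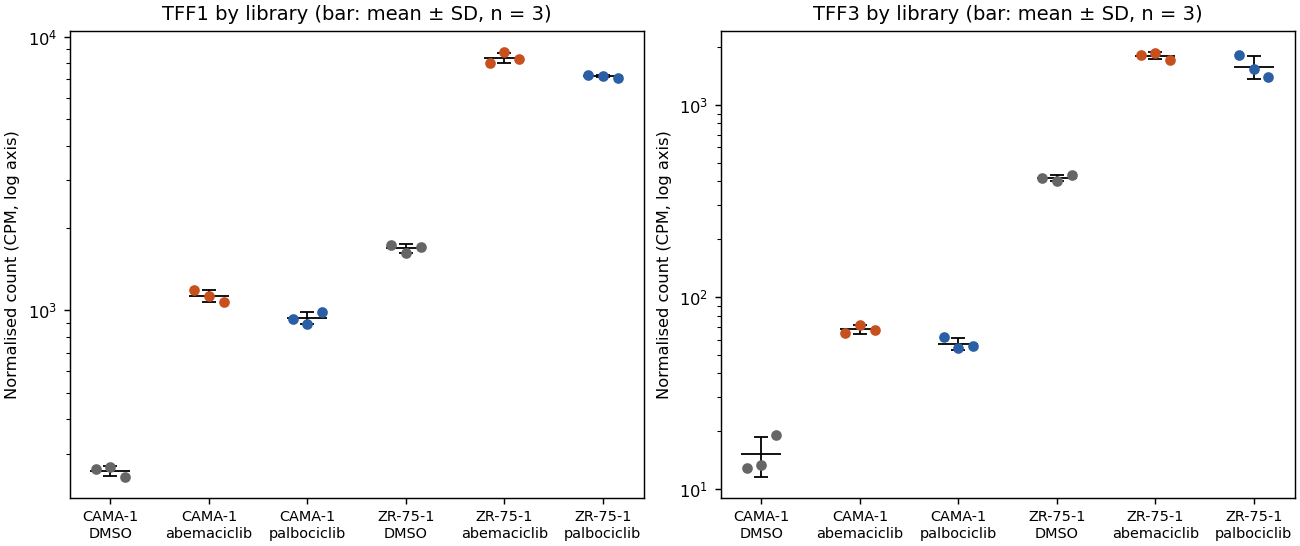
Normalised counts (CPM, log axis) of TFF1 (left) and TFF3 (right) in each of the 18 libraries, by line and treatment; points are libraries and black bars are the mean ± SD of 3. For TFF1 the 3 treatments of a line are apart from each other, while for TFF3 in ZR-75-1 the palbociclib libraries, at 1400.0 to 1815 CPM, overlap those with abemaciclib.

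TFF3 rose in the same 4 comparisons and started far lower in CAMA-1 than in ZR-75-1. In CAMA-1 the DMSO libraries had 39, 38 and 81 counts, or 13.0, 13.3 and 19.2 CPM. With abemaciclib they had 242, 162 and 213 counts, or 64.6, 71.4 and 67.6 CPM. With palbociclib they had 254, 187 and 160 counts, or 62.1, 54.1 and 55.5 CPM. The third DMSO library was above the other two, but every drug-treated library was above all 3 of them, and the abemaciclib libraries were all above the palbociclib libraries. The group means were 15.2 ± 3.53, 67.9 ± 3.40 and 57.2 ± 4.25 CPM (SD, n = 3 each). Abemaciclib raised TFF3 4.35-fold (log2 fold change 2.12, SE 0.16, 95% interval 1.80 to 2.44, edgeR adjusted p = 1.67e-15). Palbociclib raised it 3.69-fold (log2 fold change 1.88, SE 0.16, 95% interval 1.57 to 2.20, edgeR adjusted p = 9.22e-14). The standard errors were larger than for TFF1 at these lower counts, and TFF3 was at rank 115 and rank 159 from the top.

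In ZR-75-1 the TFF3 levels were 418, 400.0 and 431 CPM with DMSO. With abemaciclib they were 1809, 1866 and 1719.7 CPM. With palbociclib they were 1815, 1529.5 and 1400.0 CPM. All drug-treated libraries were above the DMSO libraries, and the first palbociclib library lay within the range of abemaciclib. From a DMSO mean of 416 ± 15.4 CPM, TFF3 rose to 1798 ± 73.9 CPM with abemaciclib and to 1581 ± 212 CPM with palbociclib (SD, n = 3 each). The rise was 4.32-fold with abemaciclib (log2 fold change 2.11, SE 0.072, 95% interval 1.97 to 2.26, edgeR adjusted p = 4.01e-31). It was 3.80-fold with palbociclib (log2 fold change 1.93, SE 0.072, 95% interval 1.78 to 2.07, edgeR adjusted p = 7.5e-29). These changes were at rank 84 and rank 96 of all genes tested.

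The study's methods describe the 3 libraries of a group as independent cultures, and the p-values measure the spread between them. In whole cultures more RNA per cell and a larger share of cells that make a transcript cannot be told apart. With the 37 mitochondrially encoded genes left out before scaling, TFF1 rose by 2.13 and 1.86 and TFF3 by 2.12 and 1.89 on the log2 scale in CAMA-1 (abemaciclib first).

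TFF2, the third trefoil gene, stayed at the limit of detection between its neighbours. It had 0 to 3 counts in each CAMA-1 library, and no count in any of the 3 ZR-75-1 libraries with DMSO. With abemaciclib the ZR-75-1 libraries had 4, 3 and 8 counts, and with palbociclib 5, 1 and 1. The mean with abemaciclib was 1.80 CPM, of which a single library held 8 of the 15 counts, and a DMSO level at the floor of 3 counts per library would be 0.961 CPM, so no fold is given. TFF2 passed the expression filter in neither line, so no test was made.

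Abemaciclib joins a benzimidazole to a pyrimidine, whereas palbociclib is built on a fused pyridopyrimidinone, and they were compared at the same dose and time in 4 comparisons (2 genes in 2 lines, each p adjusted over all genes). TFF1 was higher with abemaciclib in both lines. In CAMA-1 the difference was 1.21-fold (log2 0.27, SE 0.062, 95% interval 0.15 to 0.39, edgeR adjusted p = 0.0074), where 2.33% of genes were called, 0.796% were called higher and 17.8% did not overlap. In ZR-75-1 it was 1.16-fold (log2 0.22, SE 0.063, 95% interval 0.093 to 0.35, edgeR adjusted p = 0.0123), where 13.2% were called, 5.23% were called higher and 27.6% did not overlap. The call for TFF1 in CAMA-1 was lost without abemaciclib replicate 1 (log2 0.23, edgeR adjusted p = 0.0893), without palbociclib replicate 1 (0.26, adjusted p = 0.066) and without palbociclib replicate 2 (0.24, adjusted p = 0.0739). In ZR-75-1 it was lost without abemaciclib replicate 2 (0.19, adjusted p = 0.0505).

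For TFF3 a difference between the drugs was not called in either line. Its log2 difference was 0.24 in CAMA-1 (95% interval -0.014 to 0.49, edgeR adjusted p = 0.427), although the 3 abemaciclib libraries were all above the 3 palbociclib libraries. It was 0.19 in ZR-75-1 (95% interval 0.045 to 0.33, edgeR adjusted p = 0.0701). In ZR-75-1 the difference was called without palbociclib replicate 1, the library with the highest TFF3 of its group (log2 0.30, edgeR adjusted p = 0.000751). Both intervals include the difference seen for TFF1, and equal action on TFF3 was not shown. Only a single dose and time of each drug was measured. At that dose the proliferation genes fell further with abemaciclib than with palbociclib, most of all in ZR-75-1. The part of that in the trefoil differences between drugs was not tested.

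The size of the response was compared between lines in a fit over all 18 libraries. For TFF1 the log2 fold change in ZR-75-1 exceeded that in CAMA-1 by 0.16 with abemaciclib (95% interval -0.012 to 0.33, edgeR adjusted p = 0.209) and by 0.21 with palbociclib (95% interval 0.035 to 0.38, edgeR adjusted p = 0.0812). For TFF3 the differences were -0.025 with abemaciclib (95% interval -0.34 to 0.29, edgeR adjusted p = 0.949) and 0.021 with palbociclib (95% interval -0.30 to 0.34, adjusted p = 0.965). Neither gene was called in either comparison, where 18.2% and 20.3% of genes were. The TFF1 differences depended on the scaling. With mitochondrial genes left out they were 0.21 with abemaciclib (edgeR adjusted p = 0.0408) and 0.25 with palbociclib (edgeR adjusted p = 0.00971). These values are to be read against the median difference of all genes. That median moved from -0.0328 to 0.0157 with abemaciclib and from -0.0155 to 0.0301 with palbociclib. The TFF1 difference with palbociclib was also called without CAMA-1 DMSO replicate 3 (0.27, edgeR adjusted p = 0.028), without CAMA-1 palbociclib replicate 3 (0.28, edgeR adjusted p = 0.0235) and without ZR-75-1 palbociclib replicate 3 (0.26, edgeR adjusted p = 0.0473). The contrast between the 2 drugs differed between lines by -0.047 for TFF1 (adjusted p = 0.886) and -0.046 for TFF3 (adjusted p = 0.943), where 2.80% of genes were called.

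**Figure D2:**
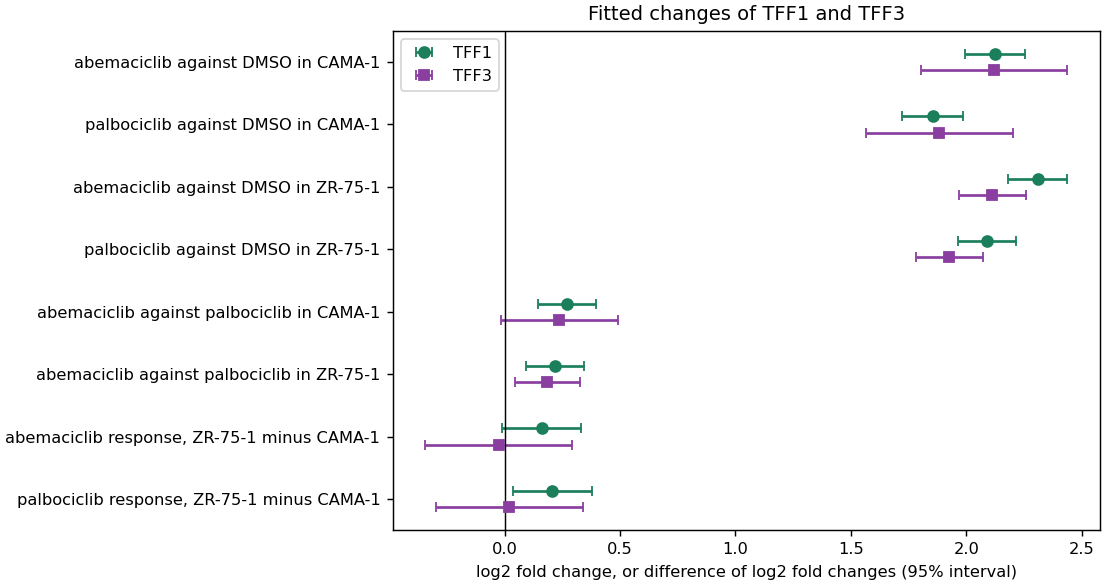
Fitted log2 fold changes of TFF1 (circles) and TFF3 (squares) with 95% intervals, for each drug against DMSO, for abemaciclib against palbociclib, and for the difference of a response between lines. The 4 changes against DMSO lie between 1.85 and 2.31 for both genes, the contrasts between drugs between 0.19 and 0.27, and the differences between lines include 0 except for TFF1 with palbociclib.

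The lines differed far more in their starting levels than in their responses. On a scale set over all 18 libraries, TFF1 with DMSO was 249.7 ± 9.35 CPM in CAMA-1 and 1722 ± 61.9 CPM in ZR-75-1 (SD, n = 3 each), a 6.90-fold difference (log2 2.79, 95% interval 2.66 to 2.91, edgeR adjusted p = 5.28e-44). TFF3 was 14.6 ± 3.48 CPM in CAMA-1 and 425 ± 15.8 CPM in ZR-75-1, a 28.2-fold difference (log2 4.82, 95% interval 4.55 to 5.08, edgeR adjusted p = 1.71e-44). Of the 11987 genes tested, 61.3% were called, 31.5% were called higher in ZR-75-1 and 64.4% did not overlap between lines.

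Both genes had the same order of group means on this common scale, from CAMA-1 with DMSO through CAMA-1 with palbociclib, CAMA-1 with abemaciclib, ZR-75-1 with DMSO and ZR-75-1 with palbociclib to ZR-75-1 with abemaciclib. The means of TFF1 in that order were 249.7, 922, 1111, 1722, 7348 and 8574 CPM, and no neighbours in the order overlapped. Those of TFF3 were 14.6, 56.3, 66.7, 425, 1617 and 1843 CPM, and only the last pair overlapped, with 1428 to 1855 CPM for palbociclib and 1760 to 1915 CPM for abemaciclib. With each mean scaled within its own line, and so not on the common scale, the range from the lowest to the highest group mean was 32.2-fold for TFF1 and 119-fold for TFF3. With either drug, both genes in CAMA-1 remained below their level in untreated ZR-75-1.

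The ratio of TFF1 to TFF3 counts within a library needs no scaling, and it differed more between the lines than between treatments. In CAMA-1 it was 20.3, 20.2 and 12.9 with DMSO. It was 18.4, 15.8 and 15.8 with abemaciclib and 15.0, 16.5 and 17.8 with palbociclib. These groups overlapped, with the third DMSO library, where TFF3 was highest, lowest of all. In ZR-75-1 the ratio was 4.14, 4.05 and 3.98 with DMSO. It was 4.44, 4.70 and 4.82 with abemaciclib and 3.99, 4.72 and 5.07 with palbociclib. Only the abemaciclib libraries were all above those with DMSO in this line.

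The means were 17.8 ± 4.27 with DMSO, 16.7 ± 1.504 with abemaciclib and 16.5 ± 1.43 with palbociclib in CAMA-1 (SD, n = 3 each). The ZR-75-1 means were 4.06 ± 0.082, 4.65 ± 0.19 and 4.59 ± 0.55 (SD, n = 3 each). In exact two-sided permutation tests of the log2 ratio, the change was -0.064 with abemaciclib (p = 0.8) and -0.085 with palbociclib (p = 0.8) in CAMA-1. In ZR-75-1 it was 0.20 with abemaciclib (exact permutation p = 0.1) and 0.17 with palbociclib (exact permutation p = 0.3). With 3 libraries against 3, these tests cannot give a p under 0.1. With labels permuted within each line, over 12 libraries, the mean change was 0.067 with abemaciclib (exact permutation p = 0.605) and 0.044 with palbociclib (exact permutation p = 0.72), where the smallest possible p was 0.005. Adjusted over these 6 tests, p was 0.6 for abemaciclib in ZR-75-1 and 0.8 for the others. The mean change over both lines turned negative without CAMA-1 DMSO replicate 3, to -0.042 with abemaciclib (exact permutation p = 0.64) and -0.066 with palbociclib (exact permutation p = 0.51). Between the lines with DMSO, the log2 ratio was 2.10 lower in ZR-75-1, at a log2 difference of -2.10 (exact permutation p = 0.1, the smallest possible). A ratio of counts at transcript ends describes change and is not a ratio of peptides.

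**Figure D3:**
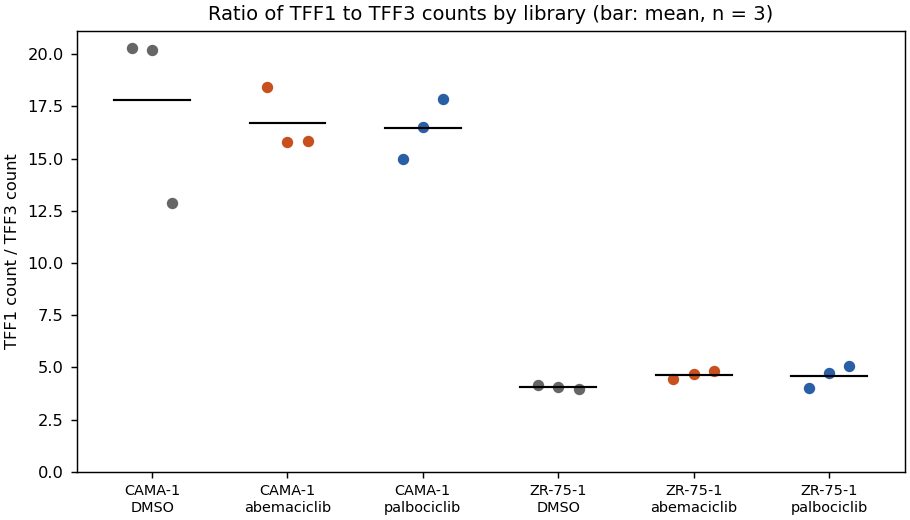
Ratio of the TFF1 count to the TFF3 count in each of the 18 libraries (linear axis from 0), by line and treatment; bars are means of 3 libraries. The CAMA-1 libraries lie between 12.9 and 20.3 and the ZR-75-1 libraries between 3.98 and 5.07, with treatments of a line overlapping except for abemaciclib against DMSO in ZR-75-1.

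Around the trefoil cluster, 10 other protein-coding genes have their start within 500 kb of the interval from TFF3 to TFF1. Of these, 8 were expressed enough to be tested in CAMA-1 and 6 in ZR-75-1, and UMODL1 and UBASH3A in neither, with at most 4 counts. In CAMA-1, 2 of the 8 rose and 1 fell with abemaciclib, and 3 rose and 1 fell with palbociclib, where 20.3% and 20.1% of all genes rose and fell with abemaciclib. For palbociclib those shares were 18.4% and 18.7%. In ZR-75-1, 1 of 6 rose with abemaciclib and 2 of 6 with palbociclib, and none passed the test as lower by edgeR (at an unadjusted p under 0.05, ABCG1 was lower with abemaciclib), against 17.9% and 14.5% of all genes higher and 18.3% and 13.4% lower. RSPH1 in both lines and TMPRSS3 in ZR-75-1 were low with DMSO and passed the filter through the drug-treated libraries. The numbers that rose thus have no weight as counts. The median log2 fold change of the tested neighbours was 0.12 for abemaciclib and 0.30 for palbociclib in CAMA-1, and in ZR-75-1 these medians were 0.39 and 0.12, against medians over all genes of 0.010, 0.0011, -0.0037 and -0.0080. By fitted value, none of these neighbours reached the rise of TFF1 or TFF3 in any of the 4 comparisons. The 95% intervals of RSPH1 covered those rises, with 0.75 to 2.53 and 0.92 to 2.67 in CAMA-1 and 1.13 to 2.91 and 0.57 to 2.39 in ZR-75-1 (abemaciclib first). The intervals of TMPRSS3 in ZR-75-1 covered them too, so a smaller rise of these neighbours was not shown.

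TMPRSS3, a transmembrane serine protease and the nearest tested neighbour, starts 29.6 kb from the TFF1 start. In CAMA-1 it had 58 to 135 counts, and its log2 fold change was -0.10 with abemaciclib (95% interval -0.46 to 0.25, edgeR adjusted p = 0.679) and 0.12 with palbociclib (95% interval -0.22 to 0.46, edgeR adjusted p = 0.623). In ZR-75-1, at 1 to 20 counts, it was 1.26 with abemaciclib (edgeR adjusted p = 0.104) and 1.76 with palbociclib (95% interval 0.54 to 2.99, edgeR adjusted p = 0.0149). The 2 lines thus differ in how much of this gene could be measured.

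RSPH1, a radial spoke protein of motile cilia that starts 129.7 kb from the TFF1 start, rose in all 4 comparisons. Its counts were 2 to 15 with DMSO, 19 to 31 with abemaciclib and 24 to 38 with palbociclib in CAMA-1. In ZR-75-1 they were 4 to 11, 20 to 31 and 16 to 26. No drug-treated group overlapped its DMSO group. On the log2 scale the rise in CAMA-1 was 1.64 for abemaciclib (SE 0.44, edgeR adjusted p = 0.00168) and 1.80 for palbociclib (SE 0.43, edgeR adjusted p = 0.000473). The rise in ZR-75-1 was 2.02 for abemaciclib (SE 0.45, edgeR adjusted p = 9.52e-05) and 1.48 for palbociclib (SE 0.45, edgeR adjusted p = 0.00688). Its start overlaps that of SLC37A1, which encodes a sugar-phosphate transporter, on the opposite strand. SLC37A1 rose in CAMA-1 (log2 fold changes 0.82, edgeR adjusted p = 0.00168, and 0.54, edgeR adjusted p = 0.0401) and was not called in ZR-75-1 (0.55, adjusted p = 0.177, and 0.29, adjusted p = 0.549). The shared stretch, 42496008 to 42496246, is at the starts of these genes, whereas the libraries read the 3′ ends of transcripts. Since the strand setting of the counting was not stated, any reads over that stretch could not be assigned with certainty.

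On the other side of the cluster, ABCG1, a transporter that exports cholesterol from cells, fell in CAMA-1 (log2 fold changes -0.50, edgeR adjusted p = 0.0173, with abemaciclib and -0.71, edgeR adjusted p = 0.000786, with palbociclib). In ZR-75-1 its values were -0.70 (edgeR adjusted p = 0.0611) and -0.35 (edgeR adjusted p = 0.381). C2CD2 rose with palbociclib in CAMA-1 (0.84, edgeR adjusted p = 0.00332) and was 0.35 with abemaciclib (adjusted p = 0.267). The zinc finger genes PRDM15 and ZBTB21 and the cyclic GMP phosphodiesterase gene PDE9A were called in no comparison with DMSO, with log2 fold changes between -0.43 and 0.39. Between lines with DMSO, 5 of the 8 neighbours tested were lower in ZR-75-1 and none was called higher by edgeR (0 also at an unadjusted p under 0.05), against 29.8% and 31.5% of all genes. The lower genes were C2CD2, ABCG1, TMPRSS3, SLC37A1 and PDE9A. In ZR-75-1 C2CD2 had 0 to 8 counts and PDE9A 0 to 3, below the filter of that line. These genes entered the fit over all 18 libraries through CAMA-1, so the number that was lower has no weight as a count. TMPRSS3 was 19.9-fold lower in ZR-75-1 (log2 -4.31, edgeR adjusted p = 4.4e-17) while TFF1, its neighbour, was 6.90-fold higher.

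**Figure D4:**
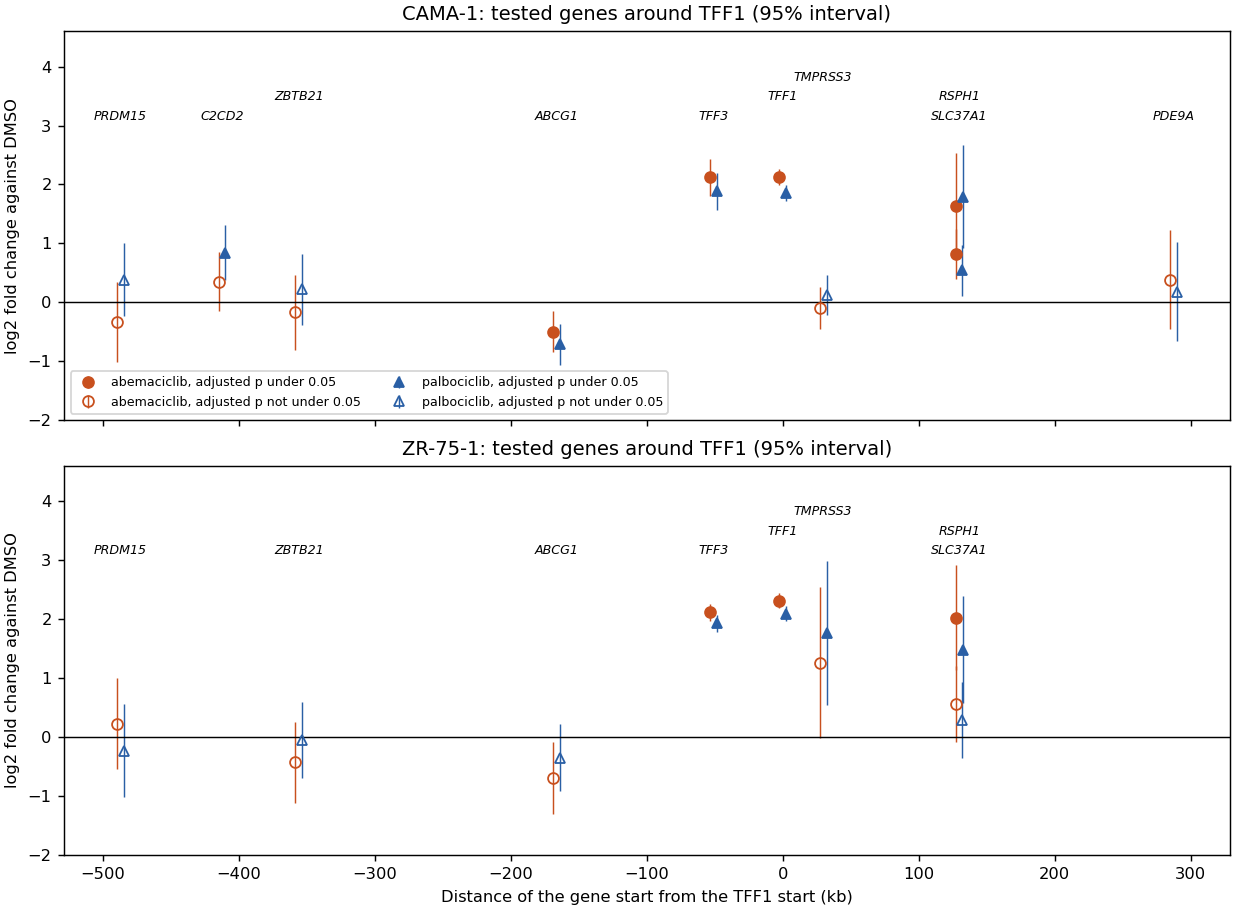
Log2 fold change against DMSO with 95% interval for each tested gene around the trefoil cluster, by distance of its start from the TFF1 start (kb), in CAMA-1 (top) and ZR-75-1 (bottom); circles are abemaciclib, triangles palbociclib, and filled symbols have an adjusted p under 0.05. By fitted value TFF1 and TFF3 lie above the other genes in all 4 comparisons, but within the intervals of RSPH1. RSPH1 at 129.7 kb is the only other gene filled in each, and TMPRSS3 at 29.6 kb lies near 0 in CAMA-1.

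Proteins that bind trefoil peptides or have been described as their receptors, a list of 13 genes, were mostly at the floor of counts in CAMA-1 and less so in ZR-75-1. At most 3 counts were found in every library for 9 of them in CAMA-1 and for 6 in ZR-75-1, among these the gastrokines GKN1 and GKN2, the mucus protein gene FCGBP, and LINGO2, described as a receptor for TFF3. EGFR, the epidermal growth factor receptor, had no count in CAMA-1. In ZR-75-1 EGFR had 3 to 14 counts with DMSO, 0 to 2 with abemaciclib and 3 to 9 with palbociclib, and was not tested. MUC5B, a gel-forming mucin, was the only member tested in CAMA-1, and its log2 fold change there was 0.31 with abemaciclib (edgeR adjusted p = 0.375) and -0.14 with palbociclib (edgeR adjusted p = 0.739). In ZR-75-1 the filter left 3 members. MUC6 and CXCR4 were low with DMSO and passed it through the drug-treated libraries, so the number that rose has no weight as a count, and values are given for each. With abemaciclib 17.9% of all genes were called higher, and with palbociclib 14.5%. MUC5B went from 168 to 223 counts with DMSO to 303 to 447 with abemaciclib and 364 to 481 with palbociclib, or log2 1.01 (edgeR adjusted p = 1.22e-11) and 1.03 (edgeR adjusted p = 1.08e-11). MUC6, another gel-forming mucin, had 2 to 9 counts with DMSO, 18 to 27 with abemaciclib and 12 to 17 with palbociclib (log2 2.43, edgeR adjusted p = 3.97e-05, and 1.55, edgeR adjusted p = 0.0167). CXCR4, a chemokine receptor also described as a receptor for TFF2, had 7 to 9, 30 to 33 and 54 to 98 counts (log2 2.11, edgeR adjusted p = 8.73e-07, and 3.15, edgeR adjusted p = 1.4e-12). In CAMA-1 CXCR4 had 1 to 16 counts and MUC6 none.

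Among genes of the oestrogen receptor and its cofactors, a list of 20 of which 19 were tested, none rose as far as the trefoil pair. ESR1, which encodes oestrogen receptor alpha, was 49.4 ± 10.7 CPM with DMSO, 91.5 ± 5.73 with abemaciclib and 94.2 ± 14.3 with palbociclib in CAMA-1 (SD, n = 3 each). In ZR-75-1 it was 168.6 ± 13.2, 328 ± 27.0 and 287 ± 15.6 CPM. The drug-treated libraries were above the DMSO libraries in both lines. On the log2 scale CAMA-1 gained 0.86 for abemaciclib (edgeR adjusted p = 2.8e-07) and 0.91 for palbociclib (edgeR adjusted p = 6.96e-08). ZR-75-1 gained 0.96 for abemaciclib (edgeR adjusted p = 3.91e-15) and 0.77 for palbociclib (edgeR adjusted p = 1.82e-11). These are RNA values, and the receptor protein was not measured here. The paper describes no major change in oestrogen receptor expression in the lines it treated. NRIP1, a corepressor that oestrogen itself induces, also rose in all 4, by log2 values of 1.11 and 1.25 in CAMA-1 against 0.50 and 0.78 in ZR-75-1 (edgeR adjusted p from 1.4e-07 to 0.000227). Over the list, 3 rose and 4 fell with abemaciclib and 3 rose and 5 fell with palbociclib in CAMA-1. In ZR-75-1, 6 rose and 4 fell, and 4 rose and 7 fell. The shares that rose were 15.8% with each drug in CAMA-1, then 31.6% for abemaciclib and 21.1% for palbociclib in the other line, against 20.3%, 18.4%, 17.9% and 14.5% of all genes. Of all genes, 20.1%, 18.7%, 18.3% and 13.4% fell in the same order. The last of these shares stands beside the 7 of 19 list members that fell in ZR-75-1 with palbociclib. The list medians were 0.024, -0.045, -0.099 and -0.18. The lowest values were -0.33 for TFAP2C, a luminal transcription factor, with abemaciclib in CAMA-1, -0.60 and -0.51 for SAFB, a nuclear matrix-binding corepressor gene, in the CAMA-1 and ZR-75-1 cells given palbociclib, and -0.71 for RB1, which encodes the retinoblastoma protein, with abemaciclib in ZR-75-1 (edgeR adjusted p = 0.00165, 0.00259, 0.0276 and 0.000115).

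A list of 36 other oestrogen-induced genes set the trefoil pair beside genes of the same kind. With abemaciclib 23 of 33 tested members rose and 4 fell in CAMA-1 and 21 of 35 rose and 2 fell in ZR-75-1. With palbociclib 22 of 33 rose and 4 fell in CAMA-1 and 24 of 35 rose and 4 fell in ZR-75-1. Of all genes, 20.1% and 18.3% fell with abemaciclib and 18.7% and 13.4% with palbociclib (CAMA-1 first). As shares, 69.7%, 60%, 66.7% and 68.6% were called higher, against 20.3%, 17.9%, 18.4% and 14.5% of all genes. Some members were low with DMSO and passed the filter through drug-treated libraries. Among them were PRSS23, PDZK1, EGR3 and CXCL12 in CAMA-1 and HSPB8 and CCN5 in ZR-75-1. Such members can hardly be called lower, which lifts these shares. The list medians, 0.59, 0.50, 0.81 and 0.60 on the log2 scale, lay below the values of TFF1 and TFF3. The trefoil pair was thus within the upper range of its list. The largest fitted values were 3.61 and 2.94 in CAMA-1 for PRSS23, a secreted serine protease (edgeR adjusted p = 1.87e-07 and 2.35e-05, abemaciclib and palbociclib), from 1 to 6 counts with DMSO to 21 to 46 and 12 to 28. In ZR-75-1 the largest with abemaciclib was 3.87 for HSPB8, a small heat shock protein (edgeR adjusted p = 2.31e-08), from 1 to 4 counts to 18 to 48. With palbociclib the largest fitted value was that of CCN5, a secreted matricellular protein, which went from 0 to 2 counts with DMSO to 10 to 23 (edgeR adjusted p = 6.31e-06). No fold is given for CCN5, because its DMSO libraries were under the floor of 3 counts. PRSS23 followed it with 3.53 (edgeR adjusted p = 3.89e-17), from 9 to 10 counts to 93 to 163. The values of PRSS23 in CAMA-1 and of HSPB8 in ZR-75-1 start from DMSO counts near that floor, so their size depends on the prior count of the fit.

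Members of this list did not all move up. GFRA1, a co-receptor for glial cell line-derived neurotrophic factor, had negative values throughout, -0.98 (edgeR adjusted p = 0.069) and -1.10 (edgeR adjusted p = 0.041) for CAMA-1, then -1.60 (edgeR adjusted p = 9.36e-10) and -1.56 (edgeR adjusted p = 1.95e-09) for ZR-75-1. BCL2, an inhibitor of apoptosis, was lowest in CAMA-1 with abemaciclib (-1.22, edgeR adjusted p = 0.0334). The epidermal growth factor receptor ligand AREG rose in CAMA-1 (1.64 and 1.42) and fell in ZR-75-1 (-0.59 and -0.94). The progesterone receptor gene PGR rose in CAMA-1 (1.02 and 1.08) and rose with palbociclib in ZR-75-1 (0.67), and had a value of 0.034 in ZR-75-1 with abemaciclib (adjusted p = 0.772).

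**Figure D5:**
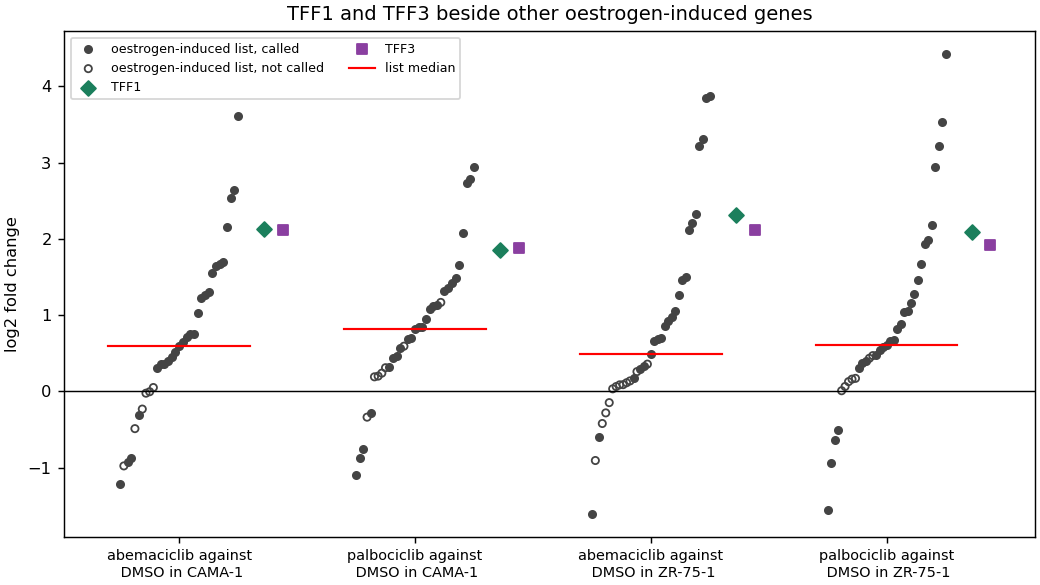
Log2 fold changes of the tested members of the oestrogen-induced list, sorted within each comparison (dots, filled where called at an adjusted p under 0.05), with the list median (red line), TFF1 (diamond) and TFF3 (square). The medians lie between 0.50 and 0.81, and TFF1 and TFF3 lie between 1.85 and 2.31, within the upper range of the list.

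Across both drugs and both lines, 453 of the 10124 genes tested in both lines (4.47%) were called higher in all 4 comparisons, and TFF1 and TFF3 were among them. The comparisons of a line share its DMSO libraries. On the oestrogen-induced list, 14 of 32 members tested in both lines were called higher in all 4, among them the oestrogen-responsive gene GREB1, the cell cycle gene CCND1, the lysosomal protease gene CTSD and the zinc transporter gene SLC39A6. PRSS23, PDZK1, EGR3 and HSPB8 are also in that number, and passed the filter in CAMA-1 or ZR-75-1 through drug-treated libraries. The lowest of the 4 log2 fold changes was 1.85 for TFF1 and 1.88 for TFF3. Counting TFF1 itself, 18 genes had a lowest value at least that of TFF1. The others were PRSS23, LINC01588, LRG1, SEC14L2, ADRB1, GP2, CYP4B1, LRRN1, CLDN1, PDZK1, a gene without a symbol (ENSG00000261538.1), KRT15, KCND3, SLC19A2, HSPB8, WNT4 and TFF3. PRSS23, PDZK1 and HSPB8 are also on the oestrogen-induced list. Fitted values of genes with so few counts with DMSO as PDZK1 (2 to 3) and PRSS23 (1 to 6) in CAMA-1 and HSPB8 (1 to 4) in ZR-75-1 depend on the prior count of the fit.

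By the root mean square difference over these 4 log2 fold changes, TFF1 and TFF3 were each other's nearest gene among 9583 genes with a symbol and a mean of at least 10 counts in each line. Their distance was 0.13. After TFF3, the genes most like TFF1 were CGNL1, a cell junction protein gene (0.27), ABAT, which encodes the enzyme that degrades GABA (0.27), KCND3, a potassium channel gene (0.29), and CLU, which encodes the secreted chaperone clusterin (0.32). After TFF1, those most like TFF3 were ABAT (0.19), KCND3 (0.27), PNPLA3, a lipase gene of lipid droplets (0.28), and RSPH1 (0.33). DESeq2 in place of edgeR named the same 5 genes for each of the pair. This likeness describes 4 fold changes that share control libraries.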

How the data were processed

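The authors deposited raw read counts per gene for 18 libraries made with a Lexogen QuantSeq 3′ kit, whose strand differs between the labels and the methods. Per the labels and the study's methods, reads were trimmed with BBDuk, aligned with STAR 2.7.5b to hg38 and counted with featureCounts 2.0.1. Strand and multimapping settings and any use of molecular identifiers are not given in the sources used here, so floors cover counting error only.

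The members and gene lists were chosen with earlier results of these data known. Lists were written by hand, and are described by counts and medians without a set test. Library totals were 2308442 to 4146549 counts. The 9 libraries of each line were fitted together with edgeR 4.0.16 under R 4.3.3 (filterByExpr, TMM scaling, two-sided quasi-likelihood test, Benjamini-Hochberg with 11053 genes tested for CAMA-1 and 11017 for ZR-75-1, threshold 0.05), and line contrasts were fitted over all 18 libraries (11987 genes). CPM are counts per TMM-scaled total. Standard errors come from the fitted weights and the moderated dispersion. Scripts were tested on simulated data. Replicate pairs differed by more than counting noise (chi-square per degree of freedom 1.84 to 5.39 over 18 pairs). Genes named are the trefoil genes, neighbours within 500 kb, ESR1, the extremes of each list and the 5 genes nearest each member. Other list members named, namely AREG, PGR, NRIP1, the genes called higher in all 4 comparisons and the genes with the largest lowest change, were chosen after their values were seen. Alternatives were RLE, upper-quartile and no scaling beyond totals, no low-count filter, mitochondrial genes left out, all 18 libraries in a single fit, DESeq2 1.42.0 (the study's tool), a replicate block, a pseudocount of 1 in the ratios, and each library left out in turn. No entry of the reference promoter table matched TFF1, TFF2 or TFF3, so no promoter motif was searched.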

Additional observations from a re-analysis of the deposited data

Results flagged for a closer look

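In a test of the difference between lines, CXCR4 and MUC5B of the trefoil partner and receptor list responded differently in ZR-75-1 and CAMA-1. So did TMPRSS3, 1 of the 8 tested neighbours of the trefoil cluster. The test was edgeR over all 18 libraries, the CAMA-1 log2 value taken from the ZR-75-1 value. Over all genes, 18.2% were called with abemaciclib and 20.3% with palbociclib. Only 3 members of the partner list were tested, and CXCR4 passed the filter through drug-treated ZR-75-1 libraries. The number called thus has no weight as a count. CXCR4 differed by 2.66 with abemaciclib (adjusted p = 0.000909) and by 4.57 with palbociclib (adjusted p = 6.43e-08), with mean levels in CAMA-1 of 2.85, 1.95 and 1.04 CPM (DMSO, abemaciclib, palbociclib) and in ZR-75-1 of 2.57, 11.2 and 22.9 CPM. MUC5B differed by 0.70 with abemaciclib (adjusted p = 0.0375) and by 1.16 with palbociclib (adjusted p = 4e-04). TMPRSS3 differed by 1.62 with palbociclib (adjusted p = 0.0192), from 1.26 CPM with DMSO to 4.40 CPM in ZR-75-1 and from 27.4 to 30.1 CPM in CAMA-1.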

How the results depend on the processing

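The rises of TFF1 and TFF3 against DMSO kept their direction and their side of the threshold in each line with each drug under all alternatives run. Without any scaling beyond library totals, the median log2 fold change of all genes moved to -0.12 with abemaciclib and -0.10 with palbociclib in CAMA-1, the share of called genes that rose went from 50.3% to 35.9% and from 49.5% to 36.3%, and TFF1 rose by 2.00 and 1.75 there. The median difference between lines moved to 0.12 with abemaciclib and 0.11 with palbociclib, where the part of the called genes that were higher in ZR-75-1 went from 44.9% to 65.9% and from 49.3% to 67.6%, and the median of ZR-75-1 against CAMA-1 with DMSO to -0.15. With totals only, the difference between lines for TFF1 was 0.31 for abemaciclib (adjusted p = 0.00603) and 0.34 for palbociclib (adjusted p = 0.00248), to be read against those medians, and for TFF3 with abemaciclib it turned to 0.13 (adjusted p = 0.646). With mitochondrial genes left out, these 3 values were 0.21 (adjusted p = 0.0408), 0.25 (adjusted p = 0.00971) and 0.023 (adjusted p = 0.964), and TFF3 differed between drugs in ZR-75-1 by 0.18 (adjusted p = 0.0488). The median difference between lines was then 0.0157 with abemaciclib and 0.0301 with palbociclib. The TFF3 contrast between drugs in ZR-75-1 was 0.21 with upper-quartile scaling (adjusted p = 0.0337), and DESeq2 gave 0.22 for TFF1 between lines with palbociclib (adjusted p = 0.0471). The cause was not tested.

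With single libraries left out, abemaciclib against palbociclib ranged from 0.23 to 0.31 for TFF1 in CAMA-1, from 0.19 to 0.25 for TFF1 in ZR-75-1 and from 0.11 to 0.30 for TFF3 in ZR-75-1. The differences between lines ranged from 0.13 to 0.25 for TFF1 with abemaciclib, from 0.20 to 0.28 for TFF1 with palbociclib, from -0.23 to 0.13 for TFF3 with abemaciclib and from -0.20 to 0.16 for TFF3 with palbociclib, and those of the drug contrast from -0.084 to 0.0062 for TFF1 and from -0.11 to 0.065 for TFF3. The log2 ratio in CAMA-1 changed by -0.28 to 0.047 with abemaciclib and -0.30 to 0.026 with palbociclib, in ZR-75-1 by 0.17 to 0.23 and 0.098 to 0.27, and over both lines by -0.042 to 0.12 and -0.066 to 0.099.

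With replicate number as a block, TFF1 rose by 2.12 with abemaciclib in CAMA-1 (adjusted p = 3.34e-23), and no call for TFF1 or TFF3 changed. The numbers did not pair the libraries: deviations of libraries with the same number correlated at -0.056 to 0.025 in CAMA-1 and -0.020 to 0.0014 in ZR-75-1, and 1 of 9 and 0 of 9 libraries correlated best with their own number.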

Other observations

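Other genes of secretory luminal epithelium, a list of 18, moved with less order than the trefoil pair. Of 10 tested in CAMA-1, 5 rose and 2 fell with each drug, and of 14 tested in ZR-75-1, 9 rose and 3 fell with abemaciclib and 10 rose and 1 fell with palbociclib. Over all genes 20.3% and 18.4% rose in CAMA-1 (abemaciclib first) and 20.1% and 18.7% fell, and in ZR-75-1 17.9% and 14.5% rose and 18.3% and 13.4% fell. The list medians were 0.26, 0.56, 0.54 and 0.76. SCGB2A2, which encodes mammaglobin, rose more with palbociclib (log2 fold changes 2.18 in CAMA-1, edgeR adjusted p = 1.22e-17, and 3.14 in ZR-75-1, edgeR adjusted p = 2.2e-39) than with abemaciclib (1.01, edgeR adjusted p = 1.84e-07, and 1.47, edgeR adjusted p = 9.09e-25). Abemaciclib minus palbociclib was -1.17 in CAMA-1 (edgeR adjusted p = 3.13e-09) and -1.68 in ZR-75-1 (edgeR adjusted p = 2.57e-27), opposite in sign to TFF1. PIP, the prolactin-induced protein gene, rose in ZR-75-1 by 3.00 and 2.82 (edgeR adjusted p = 8.5e-20 and 3.31e-18) and had at most 3 counts in CAMA-1 libraries. AZGP1, a secreted glycoprotein gene, rose most in CAMA-1 with abemaciclib (1.29, edgeR adjusted p = 5.8e-08).

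The lowest values were those of AGR2, a disulphide isomerase of mucus-secreting cells, with abemaciclib in CAMA-1 (-1.54, edgeR adjusted p = 2.92e-06), against 0.48 in ZR-75-1 (edgeR adjusted p = 3.35e-08), of FOXA3, a transcription factor of secretory epithelium, with abemaciclib in ZR-75-1 (-1.75, edgeR adjusted p = 5.63e-12), of GALNT6, a mucin glycosylation enzyme, with palbociclib in CAMA-1 (-0.43, edgeR adjusted p = 1.1e-05), and of CREB3L4, a transcription factor gene, with palbociclib in ZR-75-1 (-0.33, edgeR adjusted p = 0.00125).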
